A study of Mus musculus with 12 samples.

Results

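The genes described here are those named for proteins of the cytosolic ribosome, 84 genes chosen by symbol from the 11921 genes of a deposited expression table of mouse T cells. A gene was taken when its symbol began with Rpl or Rps followed by a digit, or was Rplp with a digit or Rpsa. The ribosomal S6 kinase genes, Rps19bp1 and symbols with -ps, which mark processed pseudogenes, were left out. The symbols still took in Rps3a2 and Rps4y2, which GENCODE M21 annotates as processed pseudogenes, and a row named Rpl24 that belongs to another gene. The members comprised 47 genes of the large subunit, 34 of the small subunit and the 3 genes of the ribosomal stalk, Rplp0, Rplp1 and Rplp2. The rule reads the symbol alone, among the genes that the authors kept in that table.

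Spleens of C57BL/6 WT mice and of STINGgt/gt mice (labelled STING KO) supplied the CD4+ T cells. STINGgt/gt mice carry the Goldenticket missense mutation of the gene for STING and lack functional protein. The mice were 8 to 12 weeks old. Naive cells of both genotypes were expanded for 2 days with antibodies to CD3 and CD28, rested for 1 day and exposed either to CMA (10-carboxymethyl-9-acridanone), an activator of STING in mice, or to DMSO as its solvent. The exposure is given as overnight in the methods and as 16 h with the deposited data. RNA sequencing covered 3 libraries for each of the 4 groups, 12 in all. The study calls these biological replicates. The deposited sample names share their first digit between the DMSO and the CMA library of the same replicate number in WT, and for 2 of 3 numbers in STINGgt/gt, but no label says what this digit stands for or names a mouse or culture. The p-values thus measure the spread between these libraries, which may be technical.

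A ribosome joins a small subunit, which reads the mRNA, with a large subunit, which forms the peptide bond, and each is built from ribosomal RNA and a fixed set of proteins present in single copies, apart from the stalk proteins. Activated T cells make large numbers of ribosomes before they divide. The mRNAs of these proteins belong to the class whose first base is a C followed by a run of pyrimidines, the terminal oligopyrimidine tract, through which mTORC1 and the RNA-binding protein LARP1 control their translation and stability. Mammalian genomes also hold many processed pseudogenes of ribosomal protein genes, so that short reads from these mRNAs often align to several places.

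The start of the transcript is shown here because this tract is the sequence feature for which the family is known. Promoter windows of RefSeq (GRCm38.p6, 250 bases before to 50 bases after each start) were matched by symbol to 61 of 83 members; the row named Rpl24 was left out because its identifier belongs to another gene, as described with the counts. In 13 of the 61 members the annotated start itself was a C followed by at least 4 pyrimidines. Each line gives 20 bases before the start and 10 bases from it, 5′ to 3′ on the strand of the gene, with the tract in capitals.
Rpl14, chr9:120571497-120571526, + strand: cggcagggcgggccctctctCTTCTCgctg
Rpl15, chr14:18270977-18271006, - strand: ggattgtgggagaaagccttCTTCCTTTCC
Rpl28, chr7:4792945-4792974, + strand: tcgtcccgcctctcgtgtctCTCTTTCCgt
Rpl35, chr2:39005122-39005151, - strand: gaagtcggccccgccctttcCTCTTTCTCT
Rpl35a, chr16:33056462-33056491, + strand: gcgcggcggggcttgccttcCTCTTTCCgc
Rpl38, chr11:114668560-114668589, + strand: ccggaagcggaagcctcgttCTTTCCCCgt
Rplp2, chr7:141447631-141447660, + strand: cccactgcgtcagcgtcttcCTTTCgccgc
Rps10, chr17:27635235-27635264, - strand: acgctgcgccgcgcacgcccCTTCCTTTCC
Rps15a, chr7:118116138-118116167, - strand: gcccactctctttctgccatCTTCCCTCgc
Rps18, chr17:33955656-33955685, - strand: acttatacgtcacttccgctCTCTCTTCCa
Rps21, chr2:180257359-180257388, + strand: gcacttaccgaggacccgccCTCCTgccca
Rps27, chr3:90213639-90213668, - strand: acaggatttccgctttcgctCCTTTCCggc
Rps6, chr4:86857358-86857387, - strand: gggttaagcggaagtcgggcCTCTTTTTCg

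Such an exact start was found in 21.3% of the matched members and in 3.01% of the 27025 mouse genes with a promoter window. Allowing the C to lie within 5 bases of the annotated start, 29 of the 61 members (47.5%) and 21.2% of all genes held it. Short motifs were searched in the whole window on both strands. ACTTCCGG, the core bound by ETS factors, was present in 12 members (19.7%) and 4.31% of all genes, and AAGATGGC, the core bound by YY1, in 6 members (9.84%) and 3.19% of all genes. GGGCGG, the GC box, was present in 39 members (63.9%) and 38.2% of all genes. TATAAA was present in 7 members (11.5%) and 15.7% of all genes, and CACGTG in 6 members (9.84%) and 8.09% of all genes. A missing match says only that these letters were not in this window.

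The counts on genes summed to between 27414450 and 43784910 per library, and replicates of a group differed by more than the sampling noise (chi-square per degree of freedom 2.52 to 27.7). Between 27.8% and 30.3% of all tallied entries per library were alignments that were not unique, which were counted on no gene. All 84 members passed the filter on low counts, as did 13811 of the 38924 counted gene IDs. The row that the table names Rpl24 carries the identifier ENSMUSG00000022601 (chr16:55973883-56008913), which the GENCODE M21 annotation of the same build names Zbtb11, a zinc finger protein gene. The identifier of Rpl24 in GENCODE M21, ENSMUSG00000098274, had only 15 to 32 counts per library and is not in the table. The row was kept as the rule requires. It passed the threshold in none of the 5 comparisons fitted with TMM to all 12 libraries, so the counts of members that rose or fell there do not include it. It passed as higher with CMA in WT when WT DMSO replicate 3 was left out (0.13, adjusted p = 0.0358, edgeR) and when scaled to the members' total.

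Markers of the labelled cell type were present in each group, and markers of other cells moved with treatment and genotype. The CPM (library-scaled counts, here with TMM factors) of 7 T-cell markers summed to 2144 to 2363 in WT libraries with DMSO, 1860 to 1899 in WT with CMA, 2339 to 2383 in STINGgt/gt with DMSO and 2318 to 2421 in STINGgt/gt with CMA. The sum over 6 B-cell markers was 271 to 291.5, 359.4 to 388.4, 118.5 to 124.7 and 117 to 118.7 in the same order. Markers of CD8 and natural killer cells (6 genes) summed to 93.9 to 110.9, 49.9 to 52.9, 32.2 to 34.0 and 31.4 to 32.6, and those of myeloid cells (7 genes) to 51.7 to 56.7, 63.7 to 67.4, 37.6 to 39.4 and 35.9 to 40.6. The higher myeloid sum in WT with CMA came with a rise of Cst3, the cystatin C gene (38.6 to 55.7 CPM on average), while Lyz2, Itgam and Fcer1g fell and Csf1r and Tyrobp did not pass, with a median log2 fold change of -0.41 over the 6 markers tested. Several defining markers were near 0, with group means of at most 0.384 CPM for the macrophage receptor Csf1r, 0.0822 for Adgre1 and 0.755 for the natural killer receptor Ncr1. The part of these shifts in the results on the members was not tested. In bulk RNA, fewer cells of a type and less RNA per cell cannot be told apart.

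Ribosomal protein mRNAs made up a smaller share of the counts in WT T cells with CMA than in any other group. The 84 genes held 8.54%, 8.95% and 7.96% of the gene counts in the 3 WT libraries with DMSO. With CMA they held 6.54%, 6.61% and 6.47%. The WT groups did not overlap, and the 3 values with CMA lay close together. In STINGgt/gt T cells the share was 8.69%, 8.41% and 8.03% with DMSO and 8.51%, 8.12% and 8.09% with CMA, and these groups overlapped with each other and with WT DMSO. The group means were 8.48 ± 0.495% (SD, n = 3) in WT with DMSO, 6.54 ± 0.0676% in WT with CMA, 8.38 ± 0.331% in STINGgt/gt with DMSO and 8.24 ± 0.232% in STINGgt/gt with CMA. Counting error was small beside this spread, since the 95% Wilson interval of a single library reached at most 0.0105 percentage points to either side; it covers counting error only. The share of alignments that were not unique was also lowest in WT with CMA, 27.8% to 27.9%, against 29.6% to 30.3% in WT with DMSO, 28.1% to 29.0% in STINGgt/gt with DMSO and 28.1% to 28.3% in STINGgt/gt with CMA. The share of entries tallied on no annotated feature was highest in WT with CMA, 6.79% to 7.16%. It was 4.86% to 5.47% in WT with DMSO, 5.98% to 6.54% in STINGgt/gt with DMSO and 6.02% to 6.33% in STINGgt/gt with CMA. The part of either share in the result was not tested.

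**Figure D1:**
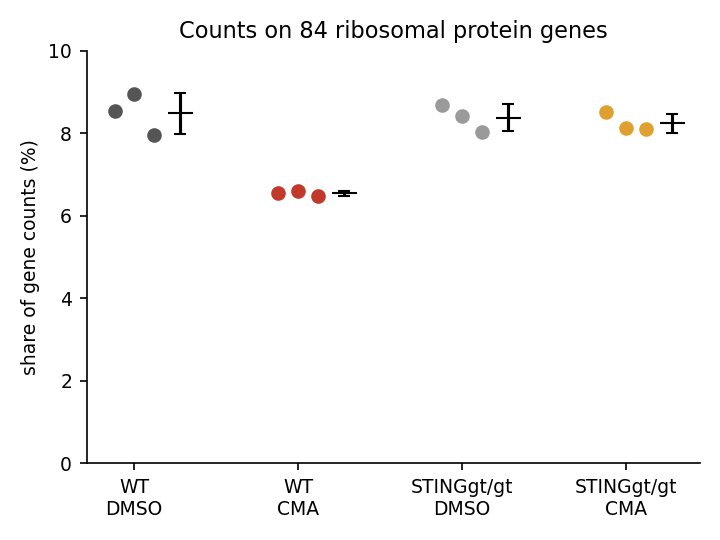
Share of gene counts on the 84 ribosomal protein genes (vertical axis, %) in each of the 12 libraries, by genotype and treatment; points are libraries, and the bars beside them give the mean and SD of 3. The 3 WT libraries with CMA lie between 6.47% and 6.61%, and the other 9 libraries between 7.96% and 8.95%.

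To ask how CMA changed each gene, the counts of all genes were fitted with edgeR's quasi-likelihood test, with an adjusted p (Benjamini-Hochberg over the 13811 genes) of 0.05 as the threshold. In WT T cells 78 of the 84 members fell, 1 rose and 5 did not pass the threshold, where 37.4% of all genes tested fell and 33% rose. The median log2 fold change of the members was -0.32, a level with CMA of 0.802 times that with DMSO, and the quartiles of the members were -0.41 and -0.26. The median of all genes tested was -0.04, and 30.1% of all genes had a lower log2 fold change than the members' median. The members' changes were thus small beside those of many genes but shared a direction, and 96.4% of them lay below the median of all genes. Among 6405 genes with a mean count of at least 1000, 2782 fell and the median was -0.05. No member changed 2-fold.

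Large and small subunit genes moved together. Of the 47 large subunit genes 45 fell and none rose, with a median log2 fold change of -0.34. Of the 34 small subunit genes 30 fell and 1 rose, with a median of -0.30, and all 3 stalk genes fell, with a median of -0.28. The median standard error over the members was 0.05, so that most changes were several times their error. All 3 CMA libraries lay below all 3 DMSO libraries in 73 members, and this held for 37.6% of all genes tested. A single member, Rps4y2, had all 3 CMA libraries above, which held for 33.5% of all genes, and 10 members overlapped. When the row named Rpl24 and 7 genes that resemble another member (Rps27l, Rpl22l1, Rpl39l, Rpl7l1, Rpl36al, Rps3a2 and Rps4y2) were set aside, 74 of 76 genes fell. The call was the same in all 21 other analyses with this threshold for 72 of the 78 genes that fell, and Rpl35, Rplp0, Rps24, Rps27 and Rps28 were among the exceptions.

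**Figure D2:**
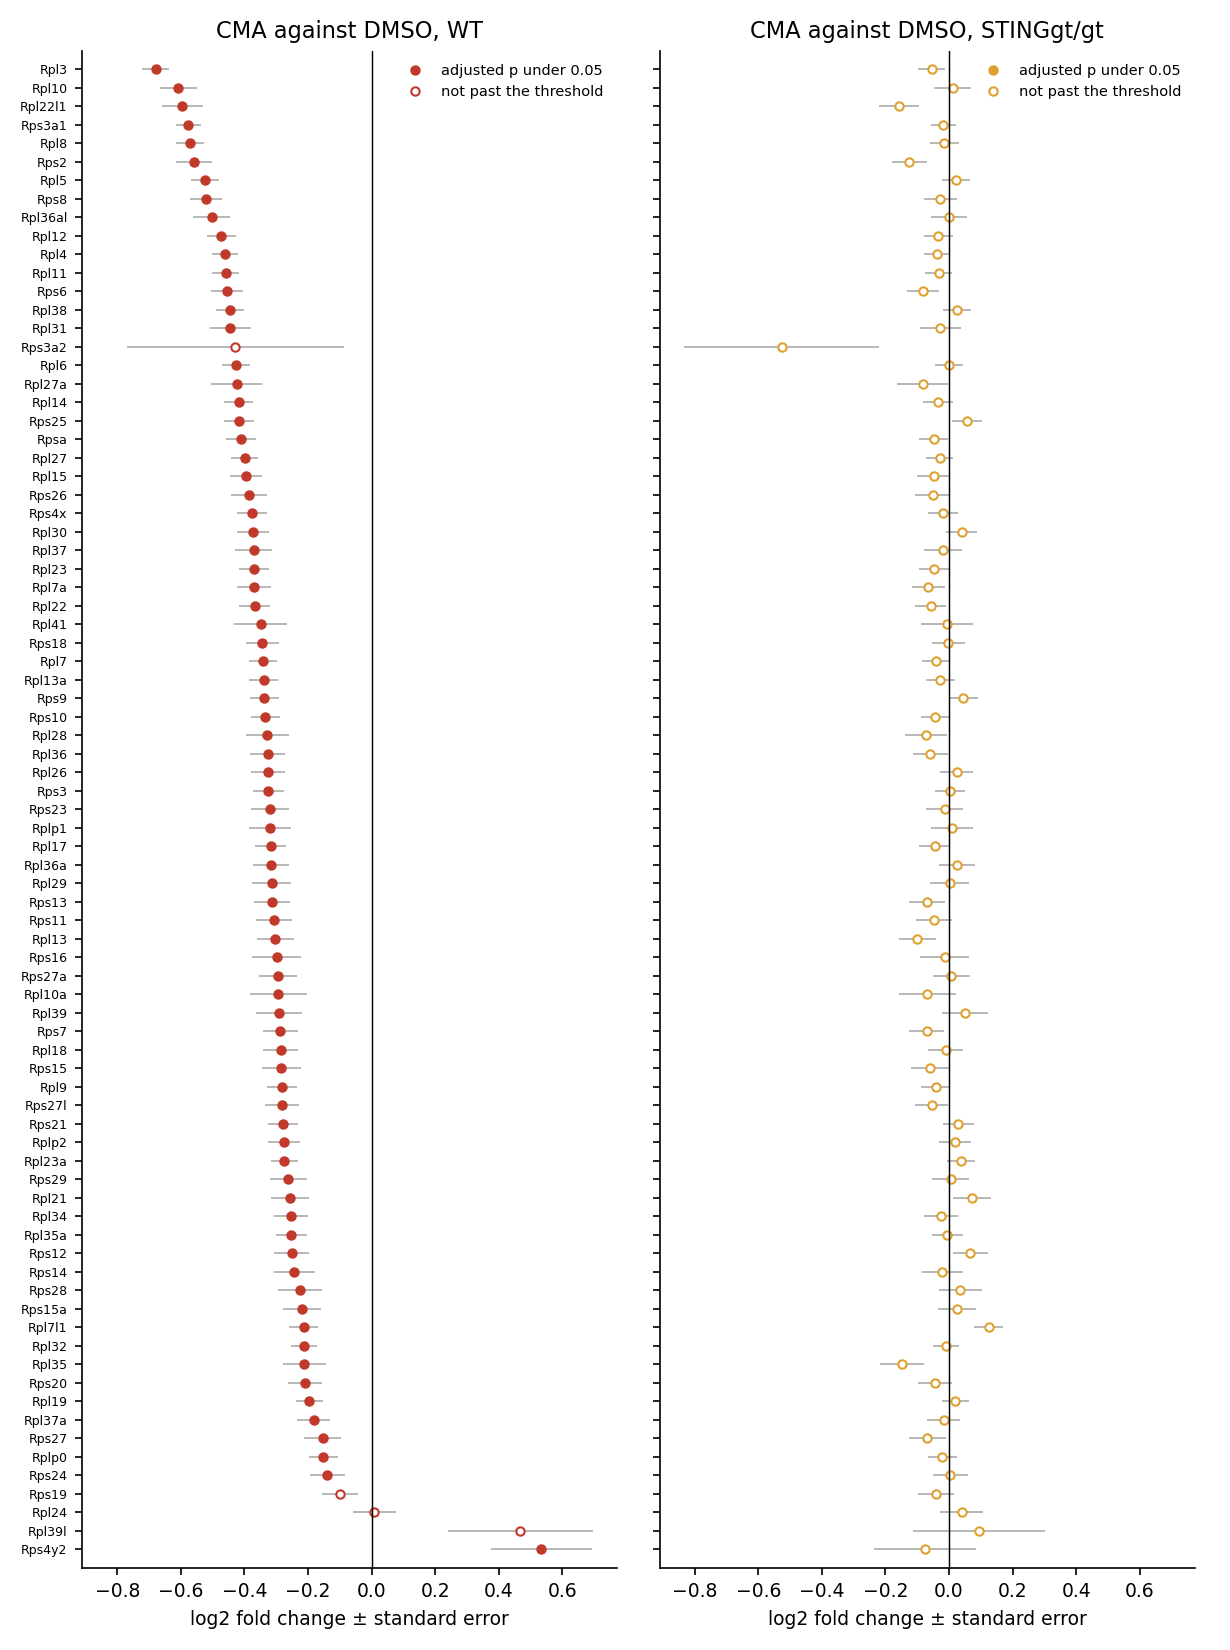
Log2 fold change with CMA against DMSO (horizontal axis, bars are the standard error) of 81 of the 84 members, ordered by the change in WT T cells, with WT on the left and STINGgt/gt on the right; filled points passed the adjusted p of 0.05 in edgeR's test. In WT 76 of those drawn lie below 0 with filled points and Rps4y2 above 0, and in STINGgt/gt no point is filled.

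Rpl3, whose protein reaches close to the site of peptide bond formation, showed the largest fall. Its level (chr15:80077781-80083406, GRCm38) was 2543, 2718 and 2500 CPM in WT with DMSO and 1616, 1610 and 1623 CPM with CMA. In STINGgt/gt T cells it was 2525, 2472 and 2394 CPM with DMSO and 2444, 2374 and 2297 CPM with CMA. Every WT library with CMA was thus below every other library, and the STINGgt/gt groups overlapped. Rpl3 fell by 0.68 ± 0.04 (SE) on the log2 scale in WT (adjusted p = 4.22e-10, edgeR), to 0.625 times the level with DMSO, and its log2 value in STINGgt/gt was -0.05 (adjusted p = 0.637). The difference of the effects was -0.62 (adjusted p = 1.82e-07).

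Rpl10, which joins the large subunit late and is needed before the subunits can pair, lies on chromosome X (chrX:74270812-74273135). It had 1048, 1084 and 1079 CPM in WT with DMSO and 721.3, 672.2 and 713.4 CPM with CMA, and in STINGgt/gt 1025, 1035 and 906.4 CPM with DMSO and 1048, 1031 and 910.3 CPM with CMA. The WT groups were apart, while the STINGgt/gt groups overlapped. Its log2 fold change in WT was -0.61 ± 0.06 (adjusted p = 1.06e-07) and the difference from STINGgt/gt was -0.62 (adjusted p = 8.34e-06). Rps3a1, a small subunit protein near the path of the mRNA as it leaves the ribosome, had 1229, 1243 and 1199 CPM with DMSO and 824.5, 815.5 and 821 CPM with CMA in WT (-0.58 ± 0.04, adjusted p = 1.31e-09). In STINGgt/gt its 6 libraries lay between 1156 and 1259 CPM. No WT library with CMA came near the range of the other groups.

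Rpl5, Rpl11, Rps6 and Rpsa fell in WT as well. Rpl5 and Rpl11 bind the smallest ribosomal RNA of the large subunit and, when not built into ribosomes, bind MDM2, the ubiquitin ligase of p53. Rpl5 had 1356, 1371 and 1398 CPM in WT with DMSO and 951.2, 938.6 and 976.6 CPM with CMA (-0.53 ± 0.04, adjusted p = 1.85e-08). Rpl11 had 957.3, 1016 and 952.3 CPM with DMSO and 722.9, 695.5 and 709.9 CPM with CMA (-0.46 ± 0.04, adjusted p = 8.34e-08). In STINGgt/gt the levels of both genes overlapped between treatments, at 1259 to 1400 CPM for Rpl5 and 882.9 to 954.2 CPM for Rpl11. Rps6, the substrate of the S6 kinases downstream of mTORC1, whose start is shown with the sequences, had 1061, 1116 and 977.1 CPM with DMSO and 764.5, 788.3 and 748.8 CPM with CMA in WT (-0.45 ± 0.05, adjusted p = 5.46e-07). In STINGgt/gt it had 1079, 999.2 and 995.7 CPM with DMSO and 995.1, 948.3 and 960.9 CPM with CMA, so the groups were just apart, but the log2 value of -0.08 did not pass the test (adjusted p = 0.532). Rpsa, also known as the precursor of the laminin receptor, had 2991, 3238 and 2889 CPM with DMSO and 2299, 2285 and 2274 CPM with CMA in WT (-0.41 ± 0.05, adjusted p = 7.38e-07).

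The stalk recruits the GTPases that drive translation, with Rplp0 as its base and Rplp1 and Rplp2 as its arms. Rplp0 had 3070, 3202 and 2834 CPM in WT with DMSO, 2693, 2809 and 2690 CPM in WT with CMA, 2956, 2855 and 2868 CPM in STINGgt/gt with DMSO and 2921, 2794 and 2836 CPM in STINGgt/gt with CMA. Its fall in WT was small, with a log2 value of -0.15 ± 0.04 (adjusted p = 0.00687, and up to 0.0695 in 2 of the other analyses), and the difference from STINGgt/gt did not pass (-0.13, adjusted p = 0.0915). In 2 of 21 other analyses this difference passed, and its adjusted p was 0.0135 without WT DMSO replicate 3. Rplp1 and Rplp2 fell by 0.32 ± 0.07 (adjusted p = 0.000414) and 0.28 ± 0.05 (adjusted p = 0.000121) on the log2 scale, and for both the difference from STINGgt/gt passed (adjusted p = 0.00649 and 0.00198).

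**Figure D3:**
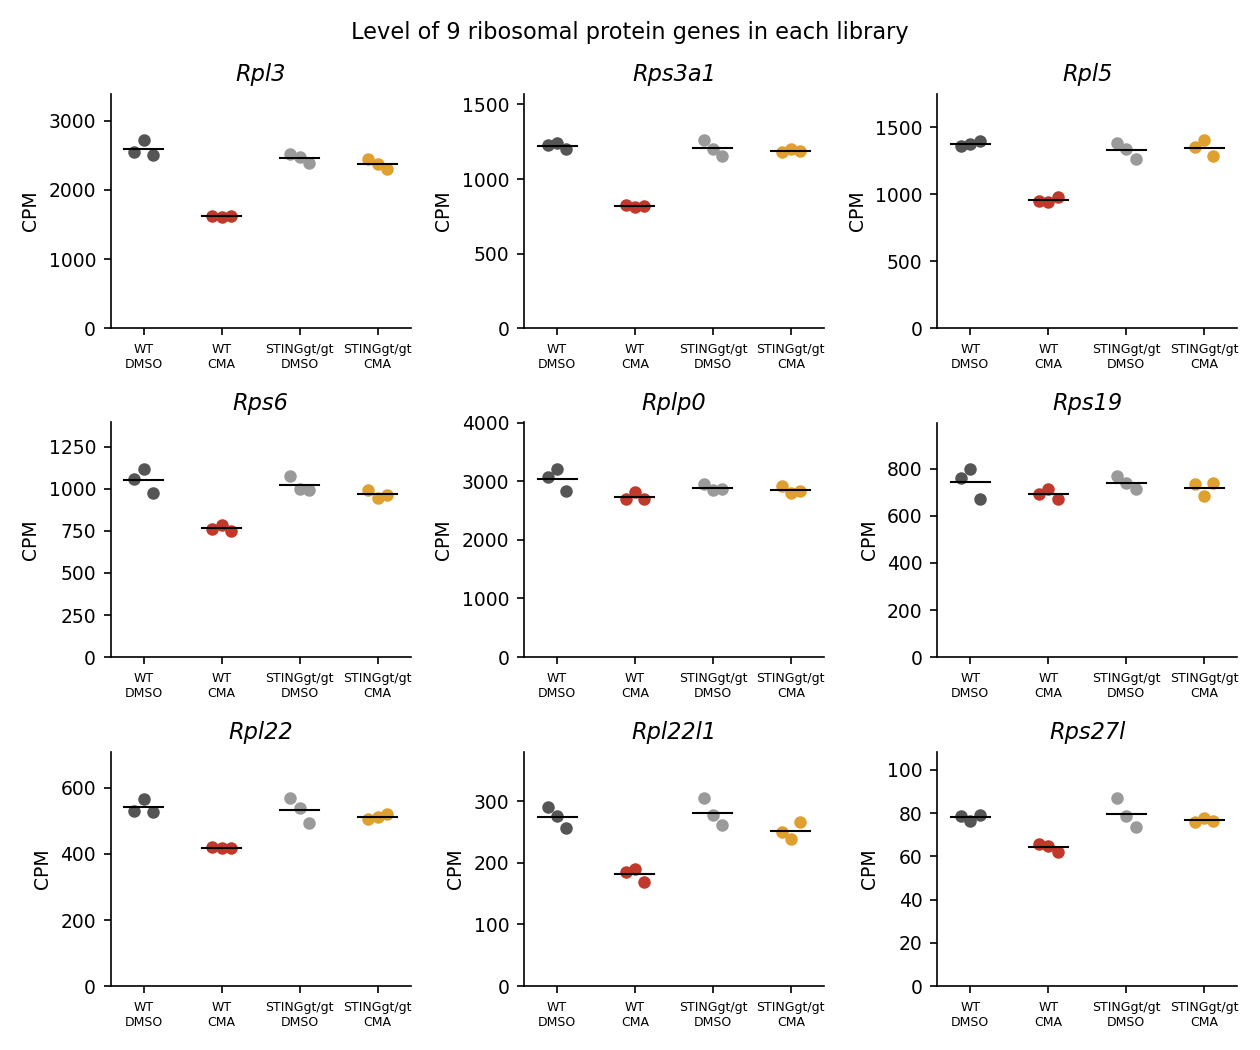
Level in CPM (vertical axes start at 0) of 9 members in each library, by genotype and treatment; points are libraries and lines are means of 3. Rpl3, Rps3a1, Rpl5, Rps6, Rpl22, Rpl22l1 and Rps27l are lower in all 3 WT libraries with CMA than in any other library, Rplp0 is lower by 0.15 on the log2 scale, and Rps19 overlaps between groups.

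Among the smallest changes that passed were those of Rps24, Rplp0, Rps27 and Rpl37a. Rps24, a small subunit protein, had 1594, 1689 and 1659 CPM with DMSO and 1505, 1435 and 1549 CPM with CMA in WT (-0.14 ± 0.05, adjusted p = 0.0309). Rps27, a zinc finger protein of the small subunit, had a log2 value of -0.15 (adjusted p = 0.0254), and the large subunit protein Rpl37a one of -0.18 (adjusted p = 0.00501). Rps24 and Rps27 each lost the call in 10 of 22 other analyses, with adjusted p up to 0.133 and 0.120. Among the 5 members that did not pass was Rps19 of the small subunit (-0.10, adjusted p = 0.132). Rps19, the gene mutated most often in Diamond-Blackfan anaemia, had 761.8, 797.7 and 672.7 CPM with DMSO and 694.7, 715.5 and 673.7 CPM with CMA in WT, and its groups overlapped. Without WT DMSO replicate 3 it passed as lower (-0.16, adjusted p = 0.00599, edgeR), and with any other single library left out its value lay between -0.13 and -0.05 and did not pass. Also among them were the row named Rpl24 (0.01, adjusted p = 0.916), Rpl39l (0.47, adjusted p = 0.0767) and Rps3a2 (-0.43, adjusted p = 0.275), the latter pair at 0.604 to 1.86 CPM in every library. With single libraries left out Rpl39l ranged from 0.32 to 0.65. It passed without WT CMA replicate 3 (0.65, adjusted p = 0.0157, edgeR) and without WT DMSO replicate 3 (0.62, adjusted p = 0.0496). The value of Rps3a2 ranged from -0.68 (without WT DMSO replicate 3) to -0.13 (without WT DMSO replicate 2) when single libraries were left out, and it passed with the replicate block (-0.47, adjusted p = 0.0408, edgeR).

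In STINGgt/gt T cells none of the 84 members passed the threshold with CMA, and of all genes tested 0.398% rose and 0.92% fell, so that a count of 0 is near the background. In edgeR 4 members had an unadjusted p under 0.05, namely Rpl22l1 (-0.16), Rpl35 (-0.15), Rps2 (-0.13) and Rpl7l1 (0.12), as had 1790 of the 13811 genes tested. DESeq2 and limma-voom likewise gave 0 calls and 4 members at that level. The smallest adjusted p was 0.226. The median log2 fold change was -0.02 with a median standard error of 0.05, and it ranged from -0.059 (without STINGgt/gt DMSO replicate 3) to 0.010 (without STINGgt/gt DMSO replicate 1) when single libraries were left out. Apart from Rps3a2 (-0.53, adjusted p = 0.506), the log2 values lay between -0.16 and 0.12. The CMA libraries were all below the DMSO libraries for Rpl13, Rpl7a, Rps2 and Rps6, all above for Rpl7l1, and overlapped for the other 79 members. Among all genes 11.3% had all CMA libraries below and 11.8% all above.

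The difference of the CMA effect between the genotypes was tested in the same model. It was more negative in WT for 70 members and more positive for 1, and 13 members did not pass, where 31.6% of all genes were more negative and 27.2% more positive in WT. The median difference was -0.31 for the members and -0.03 for all genes. By subunit, 41 of 47 large subunit genes, 27 of 34 small subunit genes and 2 of 3 stalk genes were more negative in WT. Among the largest differences were those of Rpl3 and Rpl10, followed by Rps3a1 (-0.56, adjusted p = 2.75e-07) and Rpl8 (-0.56, adjusted p = 1.42e-06), another protein near the site of peptide bond formation. For 57 of the 70 the call held in all 20 other analyses with this threshold, and Rps7 and Rpl13 were among the 13 that lost it.

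**Figure D4:**
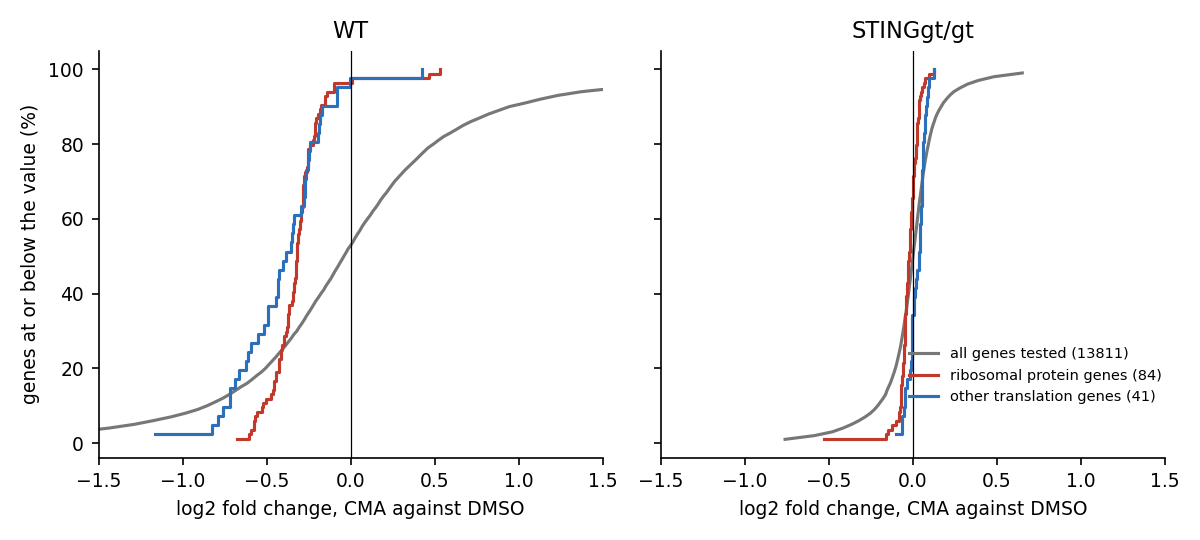
Cumulative share of genes (vertical axis, %) at or below each log2 fold change with CMA (horizontal axis) in WT (left) and STINGgt/gt (right), for all 13811 genes tested drawn from the first to the last percentile, the 84 members and 41 other translation genes. In WT both lists lie mostly below 0 and are narrower than all genes, with medians of -0.32, -0.39 and -0.04, and in STINGgt/gt the members' median is -0.02.

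With DMSO the genotypes differed little in these genes. Only Rps21, whose start is shown with the sequences, passed the threshold. It had 359.9, 370.2 and 344.8 CPM in WT and 337.2, 323.6 and 305.3 CPM in STINGgt/gt, a log2 difference of 0.15 (adjusted p = 0.0156). No member was lower in WT at the threshold, where 22.9% of all genes were higher and 19.8% lower. At an unadjusted p under 0.05 edgeR gave 3 members, all higher in WT (Rps21, Rpl23a and Rpl19), and 6893 of the 13811 genes tested. The median log2 difference of WT against STINGgt/gt was 0.04, and it ranged from -0.0017 (without STINGgt/gt DMSO replicate 3) to 0.071 (without WT DMSO replicate 3) when single libraries were left out, so that its sign was not stable. The count changed when single libraries were left out, most of all with WT DMSO replicate 3. Without that library, which had the lowest share of ribosomal protein counts in its group and the highest gene count, 11 members were higher in WT. With any other library left out 0 to 2 were. With CMA, 73 members were lower in WT than in STINGgt/gt and Rps4y2 was higher, where 36.5% of all genes were lower and 37% higher, and the median log2 difference was -0.27. These comparisons share libraries with those of CMA against DMSO.

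Several ribosomal proteins have a related gene that encodes a near copy, and these pairs could be compared within each library. Rpl22l1 (chr3:28805436-28807352) encodes a protein 70.3% identical to Rpl22 over the alignment of their annotated coding sequences. It had 290.5, 276.3 and 255.5 CPM in WT with DMSO and 185.7, 189.3 and 169.2 CPM with CMA, a log2 value of -0.60 ± 0.06 (adjusted p = 4.17e-07), while Rpl22 had -0.37 (adjusted p = 3.90e-06). As a share of Rpl22, Rpl22l1 stood at 50.7% in WT with DMSO, 43.3% in WT with CMA, 52.5% in STINGgt/gt with DMSO and 49.0% in STINGgt/gt with CMA. Rpl36al, whose protein is identical to that of Rpl36a (100% of residues, 87.7% of coding bases), fell by 0.50 on the log2 scale (adjusted p = 8.16e-07) where Rpl36a fell by 0.32 (adjusted p = 0.000117), and its share of Rpl36a was 17.7%, 15.5%, 17.3% and 17.0% in the 4 groups. Rps27l, with a protein 96.4% identical to that of Rps27, had 78.7, 76.5 and 79.2 CPM in WT with DMSO and 65.9, 64.8 and 62.2 CPM with CMA (-0.28, adjusted p = 0.000179), or 11.0%, 10.0%, 11.9% and 12.0% of Rps27. Rpl7l1, only 40.7% identical to Rpl7, fell by 0.21 (adjusted p = 0.000508) where Rpl7 fell by 0.34 (adjusted p = 3.54e-06), with shares of 5.85%, 6.39%, 6.20% and 6.96%. The difference between the members of a pair was not tested, and these shares compare counts without regard to transcript length. Partners also differed in sequence of their own. Of the 50-base windows, 1.35% of Rps27 and 77.6% of Rps27l occurred in no other annotated gene. The values were 14.5% and 53.5% for Rpl36a and Rpl36al, 75.5% and 42.7% for Rpl22 and Rpl22l1, and 46.7% and 87.8% for Rpl7 and Rpl7l1. Since reads that were not unique were not counted, the shares are not relative levels of the mRNAs.

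Rps4y2 (chr6:148354656-148355598) was the only member that rose in WT. It is named Rps4l in GENCODE M21, where it is a transcribed processed pseudogene resembling Rps4x. Its level was 1.31, 1.48 and 1.15 CPM in WT with DMSO, 1.87, 1.85 and 1.92 CPM in WT with CMA, 1.47, 1.07 and 1.40 CPM in STINGgt/gt with DMSO and 1.198, 1.36 and 1.17 CPM in STINGgt/gt with CMA. The 3 WT libraries with CMA were the highest of the 12. Its log2 fold change in WT was 0.53 ± 0.16 (adjusted p = 0.00632) and Rps4x, at 2492 to 2588 CPM in WT with DMSO, fell by 0.38 (adjusted p = 2.04e-06). The difference from STINGgt/gt was 0.61 (adjusted p = 0.029), and this call was lost in 9 of 21 other analyses, with adjusted p up to 0.0781. Of the 50-base windows of Rps4y2 82.0% occurred in no other annotated gene. This counts exact matches only, and whether reads of Rps4x were counted on Rps4y2 was not tested.

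Levels were compared between genes as CPM per kilobase of the transcript, in WT with DMSO. The highest were Rplp1 (3465), Rps12 (3421), Rpl4 (3004), Rpl32 (2622) and Rps4x (2606), from both subunits and the stalk. The lowest were Rpl39l (1.38), Rps4y2 (1.66), Rps3a2 (1.69), the row named Rpl24 (15.8) and Rpl7l1 (88.6), all of them related genes or, for Rpl24, another gene. Reads that were not unique are missing from these levels.

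To see how much of each transcript is shared with other annotated genes, every 50-base window of its main GENCODE M21 transcript was searched in all other annotated transcripts. The median member had 46.3% of windows found in no other gene (61.9% with windows of 100 bases). Rps27 had the fewest with 1.35%, Rpl10 had 7.87% and Rpl3 14.4%, whereas Rpl39l had 100%. At least 100 such windows were shared with 428 other annotated genes, most of them processed pseudogenes, and 305 of these were among the counted genes, with a summed share of 0.0528% of the counts in WT with DMSO, 0.0438% in WT with CMA, 0.0542% in STINGgt/gt with DMSO and 0.0472% in STINGgt/gt with CMA. Whether the position of reads along these transcripts differed between groups was not tested. Among the 42 members at or above the median unique share 38 fell, with a median log2 fold change of -0.30, and among the 41 below it 40 fell, with a median of -0.33. Adding the counts of the copies to the member they resemble most gave 79 genes that fell and a median of -0.33. The read length is not given in the sources used here.

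**Figure D5:**
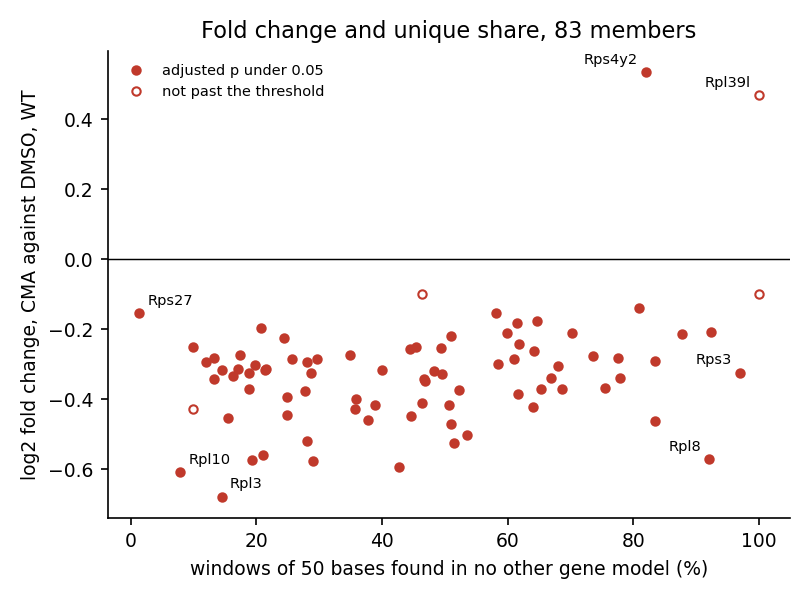
Log2 fold change with CMA in WT (vertical axis) against the share of 50-base windows found in no other annotated gene (horizontal axis, %) for 83 members; filled points passed the adjusted p of 0.05. Members that fell lie across the whole horizontal range, from Rps27 at 1.35% to Rps3 at 97.0%.

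Across the 83 members the log2 fold change in WT had a Pearson r of 0.361 with the unique share (Spearman rho 0.254), -0.126 with log2 transcript length (rho -0.21), 0.15 with GC content (rho 0.103) and -0.512 with the mean log2 CPM (rho -0.167). These are descriptions over genes measured in the same 12 libraries. The log2 CPM per kilobase itself had an r of -0.223 (rho -0.155) with the unique share. Members with a pyrimidine tract near the start had a median log2 fold change of -0.33, as did the 32 without it (-0.33), and those with ACTTCCGG had -0.36 against -0.32 without. The 6 members with AAGATGGC had -0.24 against -0.33 without, the 6 with CACGTG -0.30 against -0.33, the 7 with TATAAA -0.32 against -0.33 and the 39 with GGGCGG -0.33 against -0.33.

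Whether members changed relative to each other was asked by scaling each library to its summed ribosomal protein counts, a choice made after the data were seen. In WT 14 members then fell and 13 rose, and 57 did not pass, where 16.6% of all genes fell and 55.1% rose on this scale. The share of members that fell was thus near that of all genes, and the share that rose was well below it. Those that fell relative to the rest included Rpl3 (-0.33, adjusted p = 1.72e-06), Rpl10 (-0.26, adjusted p = 0.000758), Rpl22l1 (-0.25, adjusted p = 0.00244) and Rps3a1 (-0.23, adjusted p = 0.000262). Those that rose relative to the rest included Rps19 (0.25, adjusted p = 0.000294), Rps24 (0.21, adjusted p = 0.0019), Rplp0 (0.20, adjusted p = 0.000479) and Rps4y2 (0.88, adjusted p = 7.79e-05). The 13 that rose also include the row named Rpl24 (0.35, adjusted p = 0.00351), which is another gene. Rpl19, Rpl32, Rpl37a, Rplp0, Rps20, Rps24 and Rps27 were among the members that fell with TMM scaling and rose on this scale, that is, they fell less than the family as a whole. In STINGgt/gt 0 members passed on this scale, where 0.159% of all genes rose and 0.348% fell. Only Rpl7l1 had an unadjusted p under 0.05 there (log2 value 0.15, adjusted p = 0.437), and edgeR was the only tool run on this scale.

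Other genes of translation moved in the same direction. A list of 41 genes held initiation and elongation factors and other abundant products linked to translation. Among the latter were Fau, whose ribosomal protein the symbol rule does not reach, and the non-coding Gas5. Of the 41 genes, 36 fell in WT with CMA, 1 rose and 4 did not pass (Fau, Eif3f and Eif4g2 among them). The median log2 fold change was -0.39, where 37.4% of all genes fell and 33% rose. Eif4b, a helper of the cap-binding helicase, fell from 1106, 1042 and 1120 CPM to 492, 474.3 and 492.6 CPM (-1.16 ± 0.04, adjusted p = 2.83e-13). The elongation factor subunit gene Eef1g fell from 1172, 1236 and 1239 CPM to 755.7, 711 and 750.7 CPM (-0.72 ± 0.05, adjusted p = 2.16e-09). The initiation factor genes Eif1ax (-0.76, adjusted p = 1.12e-09) and Eif3l (-0.59, adjusted p = 1.60e-09) fell as well. The gene that rose was Pabpc1, the poly(A)-binding protein, at 3001, 2824 and 3048 CPM with DMSO and 3895, 3951 and 4064 CPM with CMA (0.42, adjusted p = 8.13e-08); it was named after its values were seen, as were the genes that did not pass. In STINGgt/gt none of the 41 passed in edgeR, where 0.398% of all genes rose and 0.92% fell. At an unadjusted p under 0.05 there was 1 of them, beside 1790 of the 13811 genes tested. The difference between genotypes was more negative in WT for 35 and more positive for 1, against 31.6% and 27.2% of all genes.

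A list of 10 genes for chaperones of single ribosomal proteins, for subunit assembly and for partners of free ribosomal proteins or nascent chains had 7 that fell and 2 that rose, against 37.4% and 33% of all genes, with a median log2 fold change of -0.51. Rrp12, which acts in the export and maturation of both subunits, fell from 60.6, 64.8 and 63.2 CPM to 19.5, 18.0 and 19.7 CPM (-1.72 ± 0.05, adjusted p = 2.59e-14). Heatr3, an import adaptor for Rpl5, fell by 1.15 (adjusted p = 5.27e-11) and Grwd1, a chaperone of Rpl3, fell by 1.06 (adjusted p = 3.56e-10). Bccip, a chaperone of Rpl23, fell by 0.99 (adjusted p = 3.27e-10). The genes that rose, named after their values were seen, are not known as such chaperones or assembly factors. Mdm2 (0.43) encodes the ubiquitin ligase of p53 that free Rpl5 and Rpl11 bind, and Nacad (1.22, at most 0.819 CPM in any library) a relative of a protein that binds nascent chains. In STINGgt/gt none of the 10 passed in edgeR's fit of all groups, where 0.398% of all genes rose and 0.92% fell. Of the 10, 3 had an unadjusted p under 0.05 there, as had 1790 of the 13811 genes tested. Grwd1 was nearest there (0.22, adjusted p = 0.0679) and passed as higher in 6 of 22 other analyses, among them DESeq2 (adjusted p = 0.0281).

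Of 20 genes that regulate ribosomal protein production, among them mTORC1 components, LARP family members and transcription factors, 6 rose and 8 fell in WT, with a median of -0.05. These shares and this median are near those of all genes (33% rose, 37.4% fell, median -0.04). Myc, a transcription factor that drives ribosome production, had 329, 325.8 and 296.9 CPM with DMSO and 486, 524 and 482.6 CPM with CMA, a rise of 0.65 ± 0.06 (adjusted p = 2.17e-08). Rheb, the GTPase that activates mTORC1, fell from 45.2, 46.2 and 49.7 CPM to 33.2, 33.9 and 32.0 CPM (-0.51, adjusted p = 8.54e-08). Eif4ebp1, an inhibitor of cap-dependent translation, fell by 0.56 (adjusted p = 1.21e-07), and the mTOR inhibitor Deptor, at most 1.09 CPM in any library, had a log2 value of -2.23 (adjusted p = 1.38e-06). In STINGgt/gt only Ddit4, an inhibitor of mTORC1, passed (-0.28, adjusted p = 0.017).

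The genes outside the family whose log2 CPM over the 12 libraries was most like the median of the members were Mettl22 (Pearson r 0.979), Mcat (0.973) and Idh3g (0.972). Mcat acts in mitochondrial fatty acid synthesis and Idh3g is a subunit of an enzyme of the citric acid cycle. All 3 fell in WT with CMA, with log2 fold changes of -0.89, -0.29 and -0.26.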

How the data were processed

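The authors aligned reads of stranded mRNA libraries to GRCm38 and deposited raw counts per Ensembl gene; their processing notes list cutadapt 1.3, STAR 2.4.0f1, HTSeq 0.6.1 and RSEM 1.2.16. The strand setting of the counting is not given in the sources used here. The authors also deposited a table of normalized log2 expression values for 11921 genes, used here for symbols, coordinates and 1 alternative. Tally entries that name no gene (not unique 27.8% to 30.3%, on no annotated feature 4.86% to 7.16%, ambiguous 0.594% to 0.635%) stayed out of library sizes and tests.

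The counts were fitted with edgeR 4.0.16 in R 4.3.3 (filterByExpr, TMM, glmQLFit and glmQLFTest, 1 model of 4 groups), with Benjamini-Hochberg adjustment over 13811 genes and a threshold of 0.05. The fit was repeated with scaling by library size, with TMM factors computed without the members, with DESeq2 1.42.0 and with limma 3.58.1 (voom, and on the log2 table). It was repeated without the filter, with a minimum of 10 counts per library, on 2 groups alone, with stricter calls (adjusted p of 0.01 or a 2-fold change), with the replicate number as a block and with single libraries removed. Scaling to the members' total, removal of the row named Rpl24 and addition of copies were chosen after seeing the data. The members and gene lists were chosen with earlier results of these data known. Named are, in each comparison, the 5 strongest and 5 weakest changes past the threshold among the members (mean count of at least 50), related genes with their partners, the stalk, Rpsa, Rps6, Rps19, Rpl5 and Rpl11, the 5 most and 5 least abundant, at most 4 genes of another list and the 3 genes most like the members; those of the comparison with CMA between genotypes are given by count. Some genes that this rule selects are counted but not reported by name here. With 3 libraries in a group, precision is limited by their spread.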

Additional observations from a re-analysis of the deposited data

Results flagged for a closer look

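The response to CMA differed between the genotypes for most of the family, by edgeR's test of the difference with Benjamini-Hochberg adjustment over all genes. It was more negative in WT for 70 members and more positive for 1, where 31.6% and 27.2% of all genes were. Among the largest differences (log2), Rpl3 had -0.62, Rpl10 had -0.62, Rps3a1 had -0.56 and Rpl8 had -0.56, and these calls held in every other analysis at an adjusted p of 0.05 or 0.01. Of the smallest that passed, Rps7 had -0.22, Rpl19 had -0.22, Rpl13 had -0.20 and Rpl32 had -0.20. The single member more positive in WT was Rps4y2, with 0.61. The call for Rpl13 was lost in 13 of 21 other analyses (adjusted p up to 0.130) and those for Rps7 and Rps4y2 each in 9 of 21 (up to 0.0741 and 0.0781). In WT the sums of T-cell, B-cell, myeloid and CD8 or natural killer markers changed with CMA as well, and in STINGgt/gt these sums overlapped between treatments; their part in the difference was not tested.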

How the results depend on the processing

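Signs were compared for the members and genes of other lists named by the rule above. Their called changes with CMA in WT, and their called differences of the CMA effect, kept their sign apart from scaling to the members' total. Signs of the other members and of the comparisons of WT against STINGgt/gt were not tested in this way. The same holds for the fits with copies added or with the row named Rpl24 removed. Over the planned analyses other than the 2-fold minimum and the adjusted p of 0.01, 73 to 79 members fell in WT and the median log2 fold change stayed between -0.37 and -0.27. With a 2-fold minimum 0 members passed in WT in either direction, in the difference, and between genotypes with either treatment, and of the other translation genes 1 fell in WT and 0 rose, 1 was more negative and 0 more positive in the difference, 0 differed with DMSO in either direction, and with CMA 1 was lower and 0 higher. The single member more positive in the difference (Rps4y2) was lost, leaving 0, with DESeq2, with no filter, at an adjusted p of 0.01 and with the replicate block within genotype. The single member higher in WT with DMSO (Rps21) was lost, leaving 0, with 2 groups only, at an adjusted p of 0.01 and when scaled to the members' total. Other translation genes higher and lower in WT with DMSO, 4 and 2 as first fitted (Eef2, Eif3f, Eif3h and Tpt1, and Hnrnpa1 and Gas5), came to 2 and 4 with library size only, to 1 and 1 with 2 groups only and at an adjusted p of 0.01, and to 1 higher with no filter. Those higher in WT with CMA, 1 as first fitted (Pabpc1), came to 2 with TMM without the members, with DESeq2 and with at least 10 counts in every library, and to 3 with limma on the log2 table. The cause was not tested.

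Scaled to the members' total, 13 members rose and 14 fell in WT with a median of 0.032, 9 and 7 differed between genotypes with a median of 0.013, and with CMA 15 were higher and 12 lower in WT with a median of 0.011; this scale removes the shared change by construction, turned the sign of members such as Rpl19, Rpl32, Rpl37a, Rplp0, Rps20, Rps24 and Rps27 in WT, and moved the median of all genes in WT from -0.04 to 0.31. Without the 10 most abundant other genes the share of counts was 8.99%, 6.88%, 8.86% and 8.71% in WT with DMSO and CMA and STINGgt/gt with DMSO and CMA. Windows of 100 bases gave a median unique share of 61.9%, and requiring the tract to begin exactly at the annotated start gave 21.3% of the matched members.

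With each library left out in turn, 1 to 3 members rose and 74 to 79 fell in WT, 0 to 1 were more positive and 58 to 75 more negative in the difference, 0 to 11 were higher in WT with DMSO (11 without WT DMSO replicate 3) and 65 to 73 were lower in WT with CMA. The 3 that rose without WT DMSO replicate 3 were Rps4y2, Rpl39l (0.62, adjusted p = 0.0496, edgeR) and the row named Rpl24, which is another gene (0.13, adjusted p = 0.0358). Of the other translation genes, 1 to 8 were higher and 1 to 7 lower in WT with DMSO, with the highest numbers also without WT DMSO replicate 3, and 1 to 3 were higher in WT with CMA. Libraries were treated as unpaired, since the labels do not say that a number or the shared digit of the sample names marks a common source, and deviations of same-numbered libraries correlated at 0.00195, 0.104 and 0.132 for numbers 1 to 3 of WT and at 0.0586 to 0.0634 for STINGgt/gt, not all above 0.1. Of the 6 numbers, 5 correlated best with their own number, and number 1 of WT correlated best with number 2. With the replicate block 79 members fell in WT and 75 were more negative in the difference, Rplp0, Rps24 and Rpl37a among those gained (adjusted p = 0.0408, 0.0415 and 0.0399, edgeR), and Grwd1 passed as higher in STINGgt/gt (adjusted p = 0.0345). Members at about 1 CPM (Rpl39l, Rps3a2 and Rps4y2) are limited by their counts.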
